A study of Homo sapiens with 6 samples.

Results

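The genes for integrin and laminin subunits were described here in hiPSC-CMs, and were taken as every gene of the series table whose symbol is that of an integrin α chain, an integrin β chain or a laminin α, β or γ chain. The rule gave 36 of the 21134 genes in the table: 16 integrin α chains, 8 integrin β chains, 5 laminin α chains, 4 laminin β chains and 3 laminin γ chains. The RNA sequencing comprised 6 libraries of these cells: 2 were left untreated (control), 2 received alcohol at 100 mM over 24 h (alcohol), and 2 received the same alcohol dose over 24 h together with losartan at 1 μM, a blocker of the angiotensin II receptor AT1R (co-treated). All 6 came from H9, an embryonic stem cell line that the labels and the paper call induced pluripotent, maintained before differentiation on Matrigel, a laminin-rich basement membrane extract. No group received losartan without alcohol, so the effect of losartan alone was not measured, and the labels do not say whether the libraries of a group came from separate cultures, so the p-values measure the spread between these libraries, which may be technical.

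Integrins are receptors made of an α and a β chain that hold a cell to its matrix and connect the matrix to the cytoskeleton. Laminins are trimers of an α, a β and a γ chain, and with collagen IV, nidogen and perlecan they build the basement membrane around each cardiomyocyte. In heart and skeletal muscle the α7 and β1 integrin chains and the dystroglycan complex are known as the main receptors of the laminin that contains the α2 chain, and loss of LAMA2 causes a congenital muscular dystrophy.

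The deposited expected counts, which are estimates of the reads of each gene, summed to between 4898287 and 5051448 per library, and the 36 genes held 0.526% to 0.559% of them. Cardiomyocyte markers were high, with TNNT2, cardiac troponin T, at 3194 to 3728 FPKM (reads scaled by gene length and library size), and their 10 genes summed to 28131 to 29074 FPKM in control, 19720 to 26416 in alcohol and 22533 to 25060 in co-treated libraries. The largest term of that sum was MYL7, the atrial light chain, at 14512 and 16180, 12612 and 9321, and 10240 and 11847 FPKM in the same order. In alcohol against control, 5 of the 10 genes were above 0 and 5 below (median log2 difference −0.06). In co-treated against control, 3 were above and 7 below (median −0.26). There, 4 had an unadjusted p under 0.05 (edgeR) below 0 and 1 above, beside 6.37% and 6.26% of all genes tested. The defining endothelial genes PECAM1 and CDH5 stayed at or below 0.78 FPKM. The 4 smooth muscle markers summed to 1689 to 1926 FPKM in control, 722 to 1451 in alcohol and 991 to 1036 in co-treated libraries, and ACTA2, smooth muscle actin, which immature cardiomyocytes also express, passed the test as lower in co-treated than in control libraries (adjusted p = 0.0203, edgeR). The 8 fibroblast and stromal markers summed to 421 to 467, 482 to 516 and 468 to 518 FPKM in the same order. The 6 epicardial and epithelial markers, nearly all of them KRT8 and KRT18, summed to 912 to 1011, 556 to 835 and 610 to 643 FPKM. The endothelial markers summed to 5.88 to 6.86 FPKM in control and 7.51 to 10.5 in exposed libraries, nearly all of the difference from KDR (3.70 and 4.00 against 5.18 to 7.70), the endoderm markers to 36.7 to 38.5 and 46.7 to 49.5, and over all libraries the leukocyte and platelet markers to 3.09 to 4.45 and the pluripotency markers to 10.4 to 19.3. The part of these shifts in the values below was not tested, and in bulk RNA fewer cells of a type cannot be told apart from less RNA per cell.

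In the control libraries, 1 β chain stood far above the rest. ITGB1, the β chain shared by most matrix-binding integrins, was at 336 and 349 FPKM in control, 305 and 284 in alcohol, and 280 and 345 in co-treated libraries, the highest level of the 36 genes in each library. It made up 91.9% ± 0.60 (SD, n = 2) of the summed FPKM of the β chains in control, 91.5% ± 0.31 with alcohol and 92.1% ± 1.61 with co-treatment. ITGB5 and ITGB3, both of which pair with the αv chain, followed at 14.8 ± 0.64 and 12.5 ± 2.56 FPKM in control. The difference was smaller than the SD of ITGB3. ITGB3 was the higher of them in both co-treated libraries and in alcohol replicate 2 (11.7 against 10.8 FPKM). ITGB6 was at 1.67 to 2.6 FPKM and ITGB8 at 0.29 to 0.59 FPKM over the 6 libraries; both also pair with αv. ITGB4, the partner of α6 in epithelial hemidesmosomes, had at most 10 counts in any library, and the leukocyte chains ITGB7 and ITGB2 had at most 2 counts each. A library with 0 counts still allows 3 counts, or 0.594 to 0.612 CPM (counts scaled to the library size), so ITGB7 and ITGB2 were not detectable in some libraries rather than shown to be absent.

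Among the α chains, ITGAV, the αv chain of receptors for vitronectin and fibronectin, was highest, with 98.2 ± 6.10 FPKM in control. ITGA7, the laminin-binding chain of striated muscle, was at 44.5 ± 3.50 FPKM, and ITGA5, the classical fibronectin receptor chain, at 29.9 ± 2.24 FPKM. ITGA3 and ITGA6, which also bind laminin, were at 15.2 ± 0.38 and 7.32 ± 0.11 FPKM, on either side of the collagen receptor chain ITGA1 at 12.9 ± 1.09 FPKM. The order ITGAV, ITGA7, ITGA5, ITGA3 held in all 6 libraries, while ITGA3 and ITGA1 changed places in 1 co-treated library. ITGAV held 44.6% ± 0.30 of the α chain FPKM in control, 42.1% ± 0.22 with alcohol and 45.8% ± 2.36 with co-treatment. The other 10 α chains lay between 0.18 and 3.34 FPKM in every library: ITGAE, ITGA4, ITGA9, ITGA11, ITGA8, ITGA10, ITGA2, ITGAX, ITGAL and the platelet chain ITGA2B, the last with at most 6 counts. ITGAL and ITGAX, chains of leukocyte integrins whose partner is ITGB2, were at 0.31 to 0.53 and 0.45 to 0.97 FPKM, and the leukocyte marker PTPRC was at 0.98 to 2.08 FPKM in the same libraries.

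The 12 α chains known to pair with β1 summed to 217 ± 13.2 FPKM in control, 198 ± 20.3 with alcohol and 188 ± 13.8 with co-treatment. ITGB1 RNA was thus present at 1.58 ± 0.14, 1.49 ± 0.08 and 1.66 ± 0.12 times that sum, and never below it. The alcohol libraries, at 1.43 and 1.55, lay below the co-treated ones, at 1.57 and 1.74, and both groups overlapped control, at 1.49 and 1.68 (two-sided exact permutation p = 0.667 for alcohol and for co-treated against control, and 0.33, the smallest that 2 against 2 libraries allow, for co-treated against alcohol).

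Laminin RNA was led by 1 γ chain, a pair of β chains and several α chains. LAMC1, the γ chain of nearly all laminins outside skin, was at 74.5 and 75.9 FPKM in control, 75.6 and 84.3 in alcohol, and 78.7 and 78.5 in co-treated libraries, which was 96.6% ± 0.06, 97.3% ± 0.31 and 97.8% ± 0.43 of the γ chain FPKM. LAMB1 was at 97.2 ± 4.43 FPKM in control, and LAMB2, the β chain of the neuromuscular junction and the kidney filter, at 67.6 ± 0.25. LAMB1 exceeded LAMB2 in each of the 6 libraries and held 58.2% ± 1.10, 55.2% ± 0.89 and 57.6% ± 2.89 of the β chain FPKM across control, alcohol and co-treated libraries.

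LAMA2, the α chain of the muscle laminin, was at 57.8 and 63.1 FPKM in control, 61.6 and 81.6 in alcohol, and 64.5 and 73.6 in co-treated libraries. It held 46.3% ± 2.70 of the α chain FPKM in control, 48.4% ± 3.53 with alcohol and 49.3% ± 4.68 with co-treatment, more than any other α chain in each library. LAMA4, best known from blood vessel walls, followed at 39.8 ± 0.28 FPKM in control, then LAMA5 at 22.0 ± 1.01 and LAMA1, prominent in early embryonic basement membranes, at 7.29 ± 1.34. Chains of the epithelial laminin of skin were low, with LAMA3 at 0.47 to 1.40 FPKM and LAMB3 at 0.25 to 0.67. LAMB4 was at 1.40 to 1.92 FPKM and LAMC3 at 0.35 to 1.06. LAMA2, LAMB1, LAMB2 and LAMC1 thus stood above every other laminin chain in all 6 libraries.

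**Figure D1:**
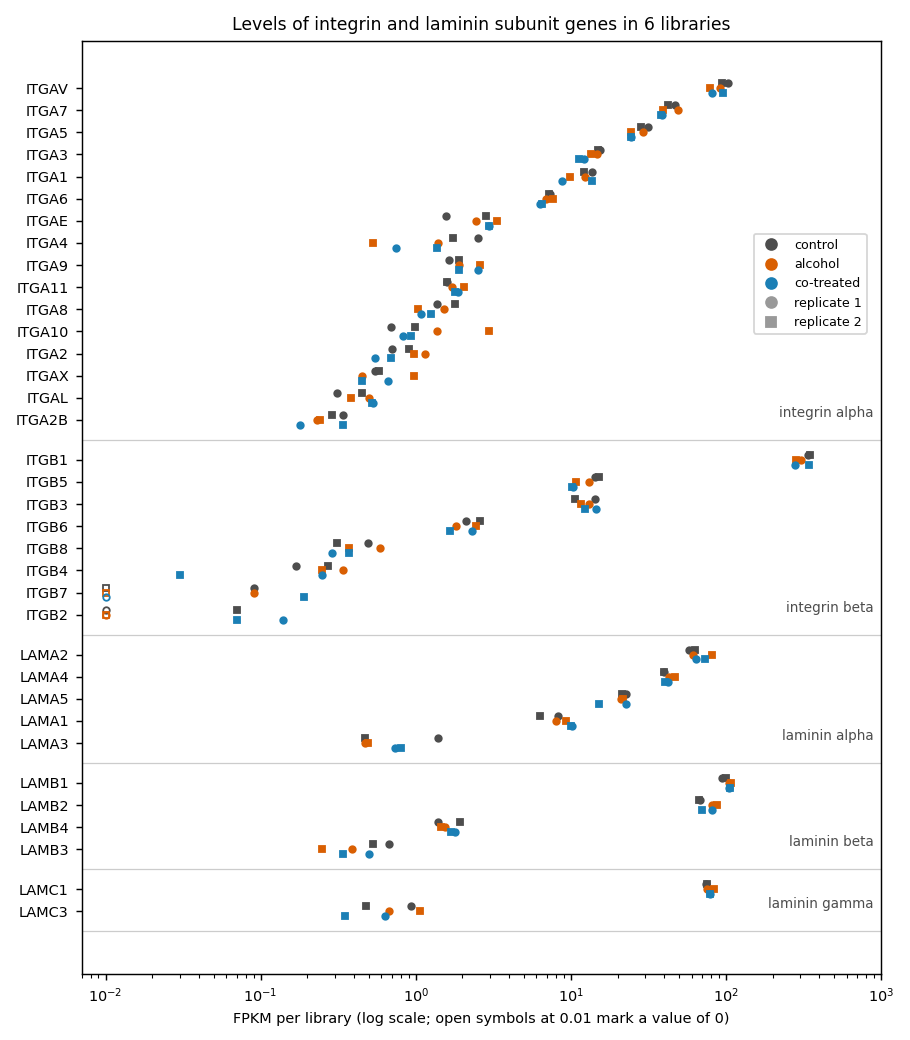
FPKM on a log axis of the integrin and laminin subunit genes reported by name, each row a gene, with circles for replicate 1 and squares for replicate 2 of the control, alcohol and co-treated groups. ITGB1 lies between 280 and 349 FPKM, above every other member in each library, and LAMC1, LAMB1 and LAMB2 lie far above the other chains of their classes, by gaps wider than the spread between libraries.

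**Figure D2:**
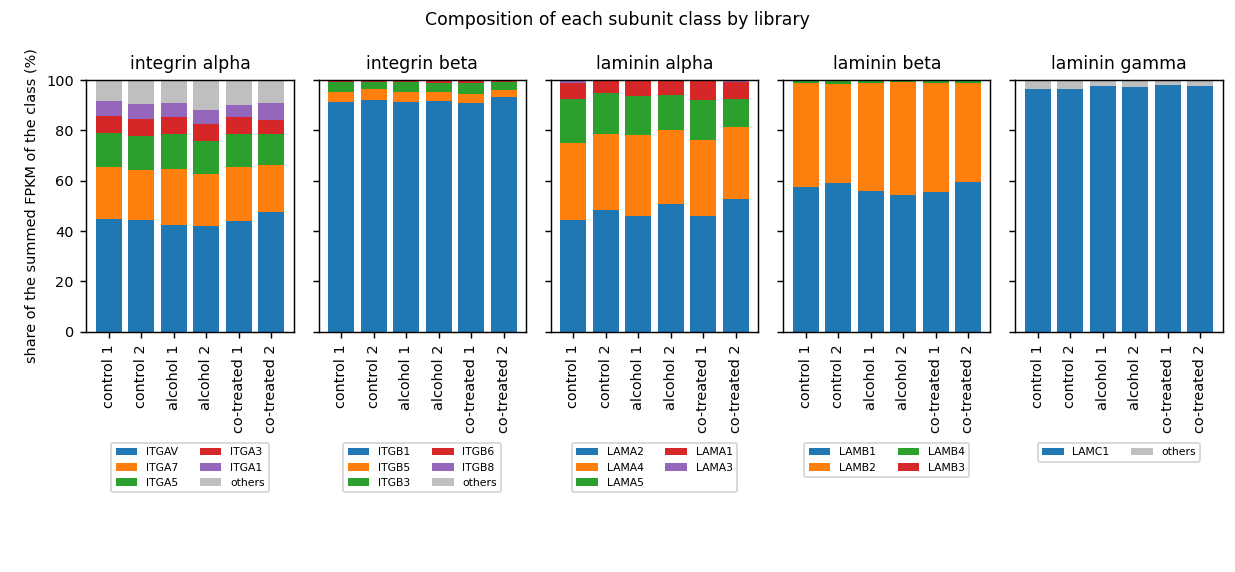
Share of each chain in the summed FPKM of its class, in percent, with 1 stacked bar for each library and the chains not shown by name as others. ITGB1 and LAMC1 take over 90% of their classes in every library, while LAMB1 and LAMB2 share the β class and LAMA2, LAMA4 and LAMA5 most of the laminin α class.

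Some neighbours in the genome differed widely in level. By the RefSeq annotation of GRCh38.p14, LAMB1 (chr7:107923799-108003161) and LAMB4 (chr7:108011662-108130361) lie 8.5 kb apart, and LAMB1 was 58.5 times as high in control FPKM. ITGA1 (chr5:52787916-52959209) and ITGA2 (chr5:52989352-53094779) lie 30.1 kb apart with a ratio of 16.0. RefSeq promoters were matched for 25 of the 36 genes (those without an entry include ITGA3, ITGA7, ITGB3 and LAMA1). The 250 bases before the start of 4 members are shown, 5′ to 3′ on the strand of the gene, with each CpG in capitals: the most abundant integrin chain (ITGB1, chr10:32958231-32958480, minus strand), the LAMB1 (chr7:108003162-108003411, minus strand) and LAMB4 (chr7:108130362-108130611, minus strand) neighbours, and the low α chain with the smallest p-value after alcohol (ITGA10, chr1:145910051-145910300, minus strand).
ITGB1: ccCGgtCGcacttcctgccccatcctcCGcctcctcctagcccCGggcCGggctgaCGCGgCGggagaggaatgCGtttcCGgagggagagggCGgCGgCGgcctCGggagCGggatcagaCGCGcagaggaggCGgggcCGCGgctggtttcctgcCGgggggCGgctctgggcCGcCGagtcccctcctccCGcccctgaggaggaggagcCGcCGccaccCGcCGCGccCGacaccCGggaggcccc
LAMB1: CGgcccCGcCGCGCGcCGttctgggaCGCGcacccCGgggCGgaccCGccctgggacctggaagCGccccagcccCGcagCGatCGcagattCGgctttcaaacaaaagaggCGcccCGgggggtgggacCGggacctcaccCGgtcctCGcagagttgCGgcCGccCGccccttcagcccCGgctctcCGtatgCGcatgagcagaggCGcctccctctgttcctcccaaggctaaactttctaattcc
LAMB4: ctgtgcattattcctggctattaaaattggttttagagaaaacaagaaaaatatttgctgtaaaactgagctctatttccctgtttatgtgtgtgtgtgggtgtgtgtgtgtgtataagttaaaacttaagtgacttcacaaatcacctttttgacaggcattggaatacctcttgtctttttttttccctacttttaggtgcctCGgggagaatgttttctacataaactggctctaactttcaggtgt
ITGA10: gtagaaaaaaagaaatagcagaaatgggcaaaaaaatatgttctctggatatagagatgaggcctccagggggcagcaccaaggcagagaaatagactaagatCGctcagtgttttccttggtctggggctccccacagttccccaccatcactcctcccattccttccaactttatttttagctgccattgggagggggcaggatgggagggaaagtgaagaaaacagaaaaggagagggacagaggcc

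The windows of ITGB1 and LAMB1 held 32 and 28 CpG dinucleotides, and those of LAMB4 and ITGA10 held 1 each, beside a median of 10 over 27305 promoters. Of the 11 matched members at 10 FPKM or more in control, 8 were at or above that median (median 16), and of the 14 below 10 FPKM, 5 were (median 8). The exceptions went both ways: LAMA4, at 39.8 FPKM, had 5 CpG, and ITGA2, at 0.81 FPKM, had 26. The windows of LAMA4, LAMA3 and ITGB8, and most of that of ITGA4, lie inside the annotated span of the gene rather than before its outermost start. Searched on both strands, the letters GGGCGG, which the GC box holds and which overlap a CpG, were found in 48.0% of the 25 windows and 42.2% of all promoters, CCAAT in 16.0% and 33.0%, and TATAAA in 4.0% and 11.2%, the last only in ITGA6 among the members. These matches describe the letters in the window and were not tested against the levels.

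To ask whether alcohol, with or without losartan, was accompanied by a change in these genes, the counts of 32 members were tested with edgeR's quasi-likelihood F test and Benjamini-Hochberg adjustment over all 14926 genes tested. ITGB4, ITGA2B, ITGB7 and ITGB2 were too low to be tested, and a filter of this kind keeps a gene that is high enough in either group. No member passed an adjusted p of 0.05 in alcohol against control, where 0.0670% of all genes tested did. At an unadjusted p under 0.05 there were 4 of the 32, against 11.0% of all genes, and DESeq2 and limma on log2(FPKM + 1) gave 3 each, with no member called by either after adjustment. The 95% intervals of 21 of the 32 lay within 1 log2 unit of 0, so a 2-fold difference in either direction lay outside them. Those of the other 11 reached further, and for ITGA10 and ITGA4 the estimate itself lay beyond 1 log2 unit.

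ITGB5, the β chain that pairs with αv to bind vitronectin, was at 14.4 and 15.3 FPKM in control, 13.1 and 10.8 in alcohol, and 10.3 and 10.2 in co-treated libraries. The 3 groups did not overlap, with control highest and co-treated lowest. Its log2 difference was −0.34 (SE 0.15, adjusted p = 0.407, edgeR) in alcohol against control, −0.52 without alcohol replicate 1 and −0.17 without alcohol replicate 2. In co-treated against control it was −0.58 (SE 0.15, adjusted p = 0.113, edgeR), the smallest p of any member in that comparison.

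ITGA3, a receptor chain for laminins that contain α3 or α5, was at 15.5 and 15.0 FPKM in control, 14.8 and 13.4 in alcohol, and 12.2 and 11.2 in co-treated libraries. The groups again did not overlap and lay in the same order as for ITGB5. The log2 difference was −0.15 (SE 0.13, adjusted p = 0.736, edgeR) in alcohol against control and −0.43 (SE 0.13, adjusted p = 0.188, edgeR) in co-treated against control. ITGA5, the fibronectin receptor chain, was at 31.4 and 28.3 FPKM in control, 29.4 and 24.5 in alcohol, and 24.3 and 24.5 in co-treated libraries. Both co-treated libraries lay below both controls, while an alcohol library lay between the controls. Its log2 difference was −0.34 (SE 0.13, adjusted p = 0.312, edgeR) in co-treated against control.

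ITGA4, a chain that binds fibronectin and VCAM1 and is known from leukocytes and the developing epicardium, was at 2.53 and 1.73 FPKM in control, 1.40 and 0.53 in alcohol, and 0.75 and 1.38 in co-treated libraries. Every exposed library lay below both controls, and the replicates within each exposed group lay far apart. These levels stand for 94 and 64 counts in control and 19 to 52.2 counts in the exposed libraries. The log2 difference was −1.17 (SE 0.41, adjusted p = 0.298, edgeR) in alcohol against control and −1.04 (SE 0.40, adjusted p = 0.300, edgeR) in co-treated against control. The second was −0.66 if co-treated replicate 1 was left out and −1.57 if replicate 2 was, and the first was −0.60 without alcohol replicate 2.

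ITGA10, a collagen receptor chain known mainly from cartilage, was at 0.69 and 0.99 FPKM in control, 1.37 and 2.96 in alcohol, and 0.83 and 0.93 in co-treated libraries, or 17 and 25, 36 and 75, and 21 and 23 counts. The alcohol libraries lay above all others and differed from each other more than the remaining 4 did. The log2 difference was 1.37 (SE 0.38, adjusted p = 0.188, edgeR) in alcohol against control and −1.33 (SE 0.38, adjusted p = 0.722, edgeR) in co-treated against alcohol. Without alcohol replicate 2 the log2 difference from control was 0.77 (adjusted p = 0.919, edgeR) and that of co-treated against alcohol −0.73. Without alcohol replicate 1 it was 1.81 (adjusted p = 0.0296, edgeR), and ITGA4 then also passed, at −2.08 (adjusted p = 0.0382, edgeR), so both calls depended on which alcohol library was kept.

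Of the other collagen receptor chains, ITGA2 was at 0.70 and 0.91 FPKM in control, 1.15 and 0.98 in alcohol, and 0.55 and 0.69 in co-treated libraries. Both alcohol libraries lay above the controls and both co-treated libraries below them, at 21.2 to 45.3 counts. The log2 difference was −0.79 (SE 0.32, adjusted p = 0.864, edgeR) in co-treated against alcohol, where no member passed an adjusted p of 0.05 beside 0.0134% of all genes tested, and 2 of 32 had an unadjusted p under 0.05 beside 5.55%, none of them above 0 beside 2.84%. DESeq2 and limma on log2(FPKM + 1) gave 1 each at an unadjusted p under 0.05.

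The intervals of the muscle laminin receptor chains included 0. The log2 difference of ITGB1 was −0.25 (95% interval −0.56 to 0.05) in alcohol and −0.18 (−0.48 to 0.12) in co-treated against control, and both alcohol libraries, at 305 and 284 FPKM, were below both controls. ITGA7 was at 46.9 and 42.0 FPKM in control, 48.8 and 39.0 in alcohol, and 38.7 and 38.1 in co-treated libraries. Alcohol overlapped control, and both co-treated libraries lay below both controls. Its log2 difference was −0.06 (−0.36 to 0.24) in alcohol and −0.26 (−0.56 to 0.04) in co-treated against control. ITGAV gave −0.24 (−0.55 to 0.07) and −0.20 (−0.51 to 0.11).

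Laminin chains gave small differences, most of them above 0 for the abundant chains. LAMB2 was at 67.8 and 67.5 FPKM in control, 80.8 and 87.7 in alcohol, and 81.5 and 70.3 in co-treated libraries. All 4 exposed libraries lay above both controls. The log2 difference was 0.28 (SE 0.12, adjusted p = 0.413, edgeR) in alcohol and 0.12 (SE 0.12, adjusted p = 0.745, edgeR) in co-treated against control. LAMA1 was at 8.24 and 6.34 FPKM in control, 7.96 and 9.31 in alcohol, and 10.2 and 9.95 in co-treated libraries. Both co-treated libraries lay above all others, and alcohol overlapped control. Its log2 difference in co-treated against control was 0.42 (SE 0.14, adjusted p = 0.239, edgeR), 0.64 without control replicate 1 and 0.23 (adjusted p = 0.793, edgeR) without control replicate 2.

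For LAMA2 the log2 difference was 0.20 (95% interval −0.10 to 0.50) in alcohol and 0.15 (−0.15 to 0.45) in co-treated against control. LAMC1 gave 0.05 (−0.20 to 0.30) and 0.02 (−0.23 to 0.27), LAMB1 gave 0.08 (−0.17 to 0.33) and 0.07 (−0.18 to 0.32), and LAMA4 gave 0.19 (−0.06 to 0.44) and 0.10 (−0.15 to 0.35). LAMA5, at −0.07 (−0.41 to 0.26) and −0.27 (−0.61 to 0.06), was the abundant laminin chain on the other side of 0, and its 2 co-treated libraries stood at 22.5 and 15.1 FPKM beside 21.0 to 22.7 in the other 4. LAMB3, a chain of the epithelial laminin, was at 0.67 and 0.53 FPKM in control and at 0.25 to 0.50 in the exposed libraries, at 14 counts or fewer. LAMA3 and LAMA4 had listed lengths that moved between libraries with the isoforms assigned, from 4916 to 7352 and from 6078 to 6789 bases, so their FPKM and counts do not keep 1 ratio between libraries.

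**Figure D3:**
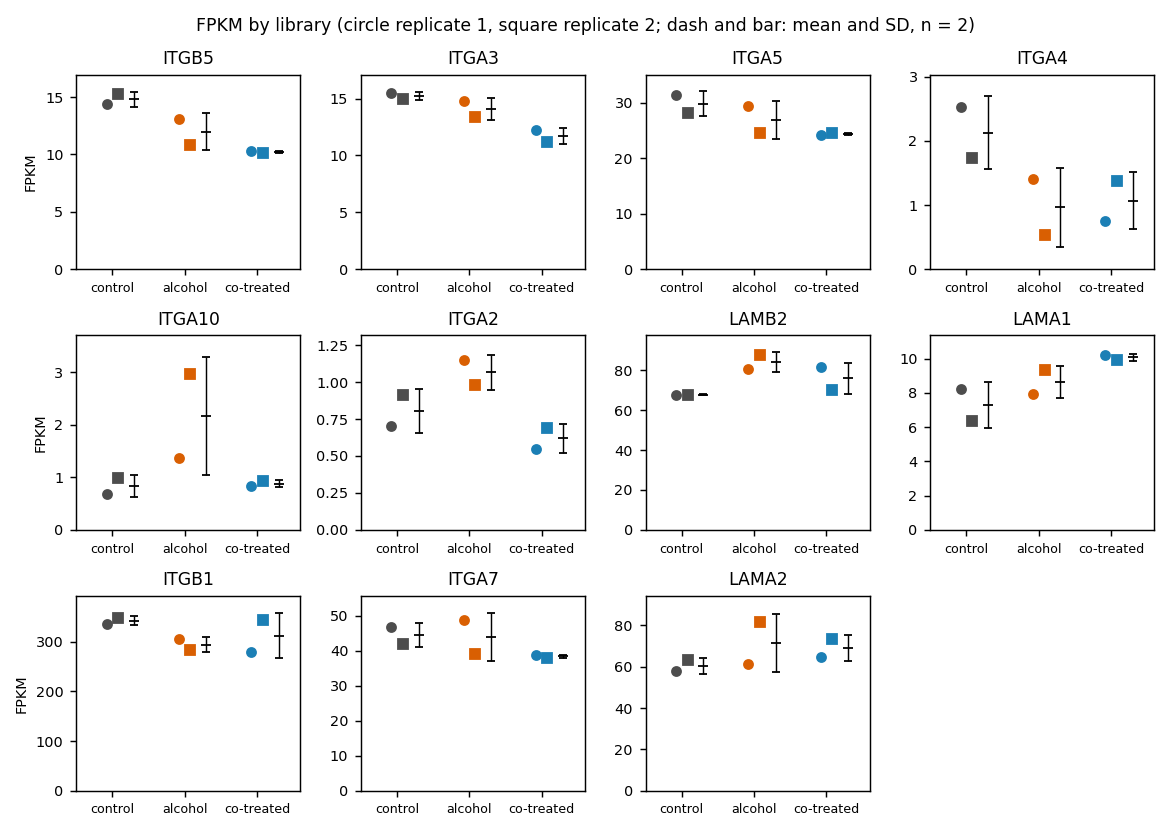
FPKM of 11 members in each library (circle replicate 1, square replicate 2), with the mean and SD of the 2 libraries of a group as a dash and bar; each axis starts at 0. ITGB5 and ITGA3 step down from control to alcohol to co-treated libraries without overlap, ITGA10 is highest in alcohol replicate 2 at 2.96 FPKM, and LAMA2 ranges from 57.8 to 81.6 FPKM.

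In co-treated against control libraries, the integrin median lay below 0 and the laminin median close to 0, with members of both families on both sides. Of the 20 integrins tested, 14 had a log2 difference below 0, with a median of −0.24, and of the 12 laminins 8 were above 0, with a median of 0.05, beside a median of 0.00 over all genes. No member passed an adjusted p of 0.05 there, beside 0.362% of all genes tested. At an unadjusted p under 0.05 there were 5 of 32 beside 12.6% of all genes (DESeq2 5, limma on log2(FPKM + 1) 3). On normalised counts (CPM after TMM), 10 of the 20 integrins had both co-treated libraries below both controls and 3 had both above, beside 21.7% and 21.6% of all genes tested. These 10 were ITGB1, ITGB5, ITGB6, ITGA2, ITGA3, ITGA4, ITGA5, ITGA6, ITGA7 and ITGA8. Of the 12 laminins, 2 lay below and 5 above. On FPKM as deposited, where all genes stood 0.04 higher in the median on the log2(FPKM + 1) scale, 8 integrins lay below and 4 above, beside 16.3% and 27.1% of all genes, since ITGB1 and ITGB6 then overlapped. The integrin median ran from −0.31 to −0.15 over the alternatives. Whether the integrins differ from the laminins or from other genes was not tested.

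In alcohol against control, 12 of the 20 integrins were below 0 with a median of −0.06 (−0.18 without alcohol replicate 1 and 0.00 without control replicate 1), and the laminins had a median of 0.07 that ran from −0.03 to 0.11 over the alternatives, so their side of 0 was not fixed. On normalised counts 8 of the 32 members lay above control without overlap and 7 below, beside 22.0% and 21.8% of all genes. In co-treated against alcohol, 13 of 20 integrins were below 0 (median −0.13), 3 members lay above alcohol without overlap and 7 below, beside 17.4% and 16.2% of all genes, and the laminin median was −0.02 with a range of −0.08 to 0.04. The summed integrin FPKM was 593 ± 4.84 in control, 524 ± 36.5 with alcohol and 531 ± 57.3 with co-treatment, and the summed laminin FPKM was 375 ± 5.87, 421 ± 31.9 and 404 ± 6.61. ITGB1 alone made up 342, 295 and 313 FPKM of the integrin means, in that order. All 4 exposed libraries lay below the controls in the integrin sum and above them in the laminin sum. Taken alone, each exposed group against control gave the smallest two-sided exact permutation p that 2 against 2 libraries allow, 0.33.

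**Figure D4:**
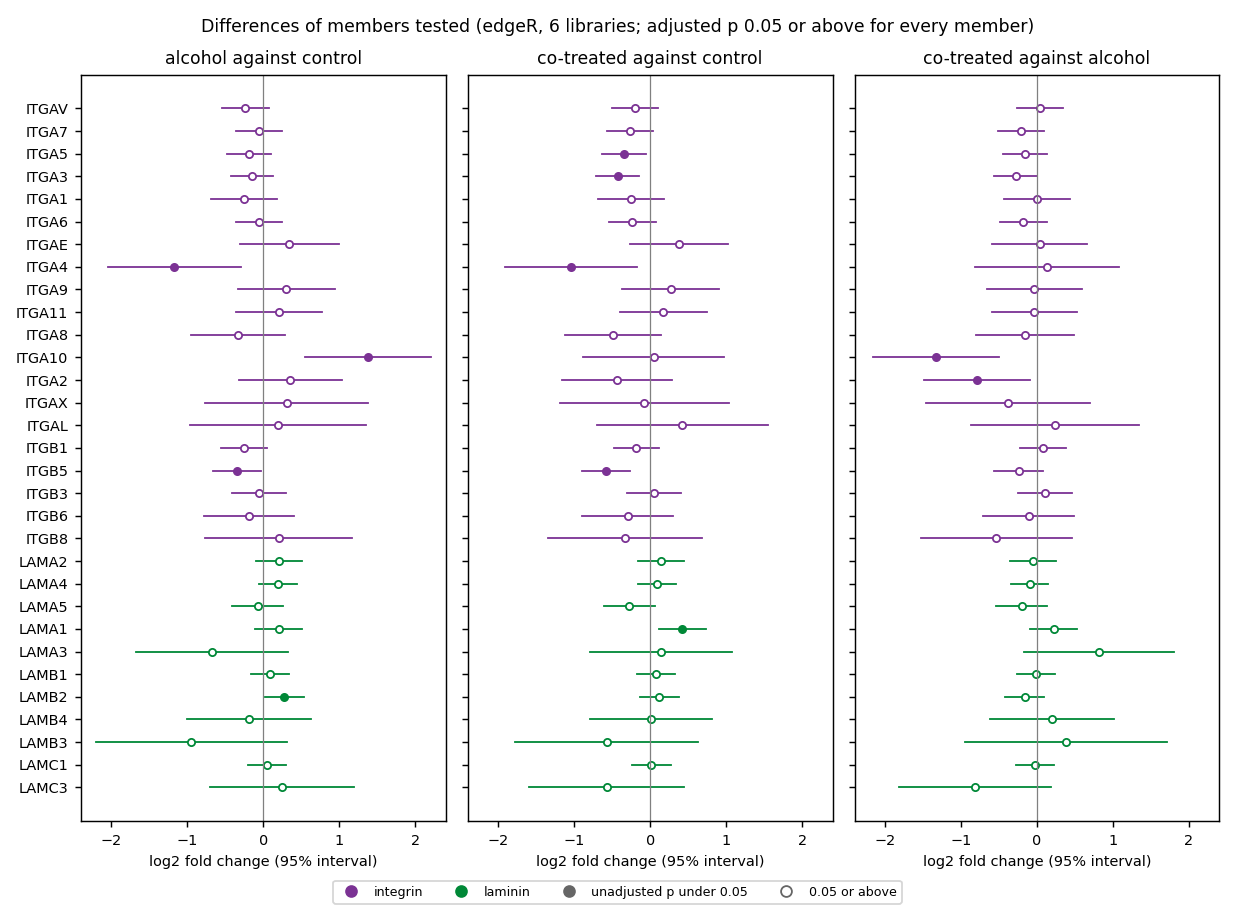
Log2 differences with 95% intervals of the members tested and reported by name, in 3 comparisons; purple marks integrins, green laminins, and filled points an unadjusted p under 0.05. Most integrin points lie left of 0 in co-treated against control (14 of 20), the abundant laminin chains lie near 0, and the widest intervals belong to the low chains.

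With the 4 exposed libraries pooled as 1 group against the 2 controls, which share the controls of the comparisons above, no member passed an adjusted p of 0.05 beside 0.556% of all genes, and 6 of 32 had an unadjusted p under 0.05 beside 13.5%, 1 of them above 0 beside 6.48% (DESeq2 2, limma on log2(FPKM + 1) 3). Among these were ITGB5 at −0.46 (SE 0.12, adjusted p = 0.113, edgeR), ITGA4 at −1.11 (SE 0.34, adjusted p = 0.159, edgeR), ITGA3 at −0.29, LAMA1 at 0.31 and ITGA5 at −0.26. Without control replicate 1 the last pair gave 0.54 and −0.16, and without control replicate 2 LAMA1 gave 0.13. In all 4 exposed libraries against both controls, 5 members lay above and 6 below without overlap, beside 11.8% and 11.3% of all genes. Without alcohol replicate 1, ITGA4 (−1.56, adjusted p = 0.0177, edgeR) and ITGB5 (−0.55, adjusted p = 0.0401, edgeR) passed, while without alcohol replicate 2 they gave −0.82 and −0.38 and no member passed. Alcohol replicate 2 was also the library with the lowest summed smooth muscle markers, at 722 FPKM, and the lowest summed cardiomyocyte markers, at 19720 FPKM. Of the latter, MYL7 (9321 FPKM), MYL2, NPPA, ACTN2 and TTN were lowest there, and TNNT2, MYH7 and RYR2 were neither lowest nor highest. MYH6 and NKX2-5 were highest there, at 737 and 151 FPKM, beside 717 for MYH6 in control replicate 2. The part of this in the values of ITGA4, ITGA10 and ITGB5 was not tested.

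Proteins of the integrin adhesion complex, which include links to actin, kinases and scaffolds, were taken as a list of 32 genes. Of these, 29 were tested and none passed the adjusted threshold in any comparison. The most abundant were FLNC, the muscle filamin, at 184 ± 25.0 FPKM in control, ILK, the integrin-linked kinase, at 111 ± 11.5, and ITGB1BP2, the muscle protein melusin that binds the β1 tail, at 103 ± 11.7. In co-treated against control, 26 of the 29 were below 0, with a median log2 difference of −0.27, and 11 had an unadjusted p under 0.05 with a value below 0, beside 6.37% of all genes tested, while none had one above 0. In alcohol against control the same count was 2 of 29 beside 5.78%, with a median of −0.09, and in co-treated against alcohol 3 of 29 beside 2.71%, with a median of −0.15. With the exposed libraries together it was 10 of 29 beside 7.05%.

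ACTN1, the non-muscle α-actinin, was at 62.4 and 61.0 FPKM in control, 50.9 and 36.5 in alcohol, and 44.1 and 39.4 in co-treated libraries. All exposed libraries lay below both controls, with a log2 difference of −0.61 (SE 0.16, adjusted p = 0.115, edgeR) in co-treated against control. FERMT1, kindlin-1, which activates integrins, was at 7.10 and 7.73 FPKM in control and 5.09 and 5.46 in co-treated libraries, with −0.54 (SE 0.15, adjusted p = 0.156, edgeR). ACTN4, the other non-muscle α-actinin, gave −0.57 (SE 0.17, adjusted p = 0.166, edgeR). PARVA, α-parvin, a partner of ILK, was at 12.7 and 12.1 FPKM in control and between 8.70 and 10.6 in the exposed libraries, with −0.40 (SE 0.14, adjusted p = 0.298, edgeR) in alcohol against control. BCAR1, TLN2 and FLNA, a scaffold, a talin and a filamin, had the smallest p in co-treated against alcohol, at −0.43, −0.31 and −0.34 with adjusted p of 0.836, 0.857 and 0.897 (edgeR). The summed smooth muscle markers were also lower in the exposed groups (1689 to 1926, 722 to 1451 and 991 to 1036 FPKM), and their part in these values was not tested.

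Other basement membrane components and integrin ligands were taken as 17 genes, of which 16 were tested and none passed the adjusted threshold. COL18A1, COL4A2 and FN1, fibronectin, were highest, at 298 ± 0.74, 174 ± 9.55 and 172 ± 15.5 FPKM in control. The collagen IV chain COL4A6 was at 30.9 and 31.4 FPKM in control, 40.3 and 49.3 in alcohol, and 43.6 and 40.4 in co-treated libraries. Every exposed library lay above both controls, with a log2 difference of 0.48 (SE 0.12, adjusted p = 0.152, edgeR) in alcohol and 0.38 (SE 0.12, adjusted p = 0.200, edgeR) in co-treated against control. NID2, a nidogen that joins laminin to collagen IV, and COL4A5 gave 0.39 (adjusted p = 0.262, edgeR) and 0.30 (adjusted p = 0.380, edgeR) in alcohol against control, so 3 of 16 had an unadjusted p under 0.05 above 0, beside 5.27% of all genes, and none below. FN1, a ligand of ITGA5 and ITGAV, was at 161 and 183 FPKM in control, 144 and 147 in alcohol, and 122 and 134 in co-treated libraries. Its groups stepped down without overlap, with a log2 difference of −0.46 (SE 0.13, adjusted p = 0.136, edgeR) in co-treated against control. THBS1, thrombospondin-1, gave −0.75 (SE 0.28, adjusted p = 0.292, edgeR) there, and AGRN, agrin, gave −0.38 (adjusted p = 0.882, edgeR) in co-treated against alcohol. In co-treated against control, 3 of 16 had an unadjusted p under 0.05 below 0 and 1 above 0, beside 6.37% and 6.26% of all genes. There 12 of the 16 were below 0, with a median log2 difference of −0.10. In co-treated against alcohol 14 were below 0, with a median of −0.16. In alcohol against control 8 lay above 0 and 8 below, with a median of −0.03.

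Laminin receptors other than integrins were taken as 19 genes, of which 17 were tested and none passed the adjusted threshold. BCAM, a laminin α5 receptor, and DMD, dystrophin, were among the highest, at 96.9 ± 5.28 and 61.6 ± 8.92 FPKM in control. SGCA, α-sarcoglycan of the dystrophin complex, was at 28.5 and 31.7 FPKM in control, 39.4 and 43.7 in alcohol, and 42.4 and 34.7 in co-treated libraries. Each exposed library lay above both controls, with a log2 difference of 0.48 (SE 0.15, adjusted p = 0.244, edgeR) in alcohol and 0.39 (SE 0.15, adjusted p = 0.292, edgeR) in co-treated against control. BCAM was at 101 and 93.2 FPKM in control, 120 and 136 in alcohol, and 109 and 92.8 in co-treated libraries, so alcohol stood above both other groups. Its log2 difference was 0.36 (SE 0.12, adjusted p = 0.280, edgeR) in alcohol against control and −0.36 (SE 0.12, adjusted p = 0.836, edgeR) in co-treated against alcohol. SDC4, a syndecan found in focal adhesions, gave 0.29 (adjusted p = 0.413, edgeR) in alcohol and 0.34 (adjusted p = 0.267, edgeR) in co-treated against control. Above 0 with an unadjusted p under 0.05 were 3 of 17 in alcohol and 2 of 17 in co-treated against control, beside 5.27% and 6.26% of all genes, and the list's median was −0.02 and 0.01 beside 0.00 over all genes.

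**Figure D5:**
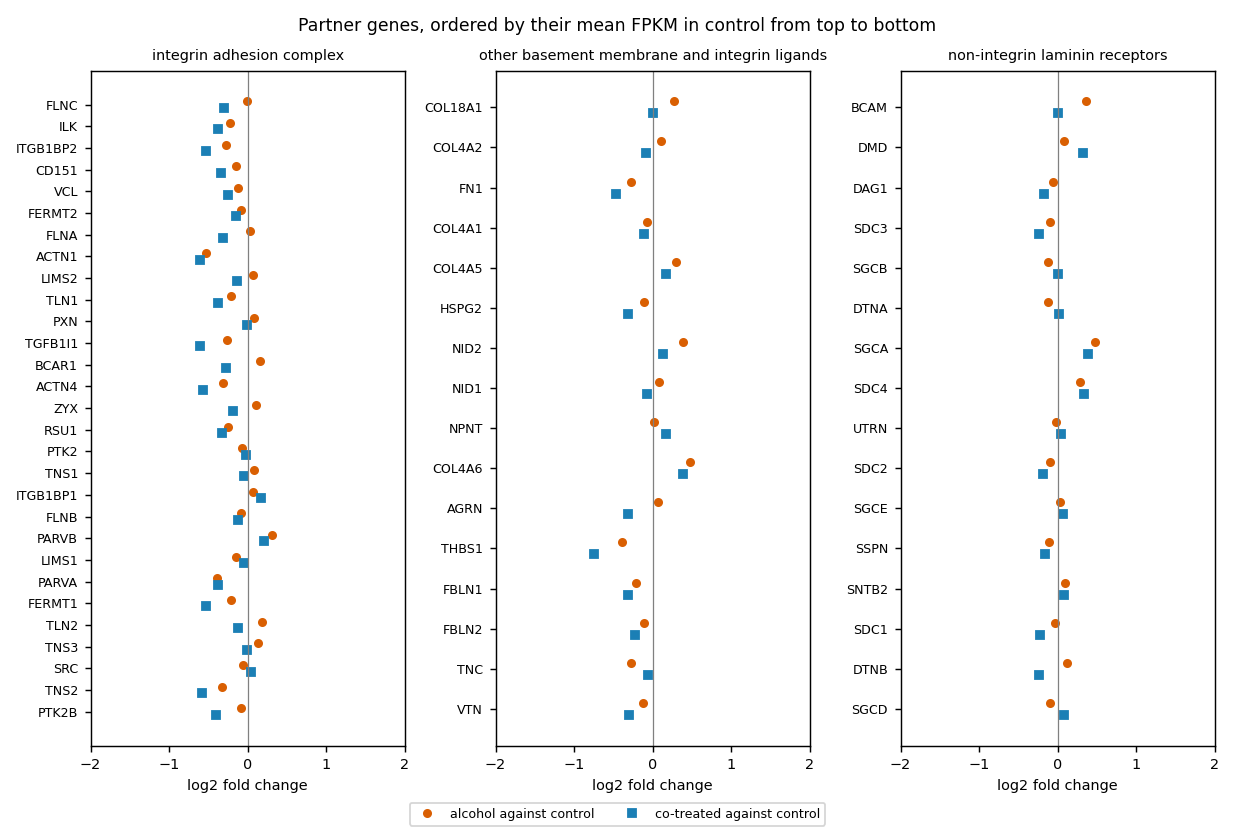
Log2 differences from control of the tested and named genes of the 3 partner lists, with circles for alcohol and squares for co-treated libraries, ordered from top to bottom by mean FPKM in control. In the integrin adhesion complex 26 of 29 squares lie left of 0, while the laminin receptors lie on both sides.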

How the data were processed

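RNA sequencing of 6 libraries of hiPSC-CMs (2 control, 2 alcohol, 2 co-treated) was used, grouped by the treatment in the labels. The files deposited by the authors list, gene by gene, an expected count, a transcript length and the FPKM of every library; 33.9% of the expected counts above 0 were not whole. The submitters' processing notes name HISAT2 2.0.4, Bowtie2 2.2.5 and RSEM 1.2.12 with the build hg38. Whether counting used strand is not given in the sources used here, so reads of overlapping genes (BLOC1S1 at ITGA7, PELO at ITGA1, HASPIN at ITGAE, CERKL at ITGA4, LAMA5-AS1 at LAMA5) may be split uncertainly. Levels were compared between genes as FPKM, also deposited by the authors.

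Expected counts were rounded and tested with edgeR 4.0.16 in R 4.3.3: quasi-likelihood F test, two-sided, TMM, filterByExpr, all 6 libraries in 1 fit, Benjamini-Hochberg at 0.05 over 14926 genes. The standard error was the log2 difference divided by the root of F, and 95% intervals used the matching t quantile. Non-overlap between groups was read on CPM after TMM. The step was tested on simulated data with changes of 1 log2 unit or more, so smaller changes were not covered. Alternatives were each library left out, a fit of the compared groups alone, a replicate block, a minimum of 10 counts in each library or no filter, size factors of DESeq2 type, DESeq2 1.42.0, and limma 3.58.1 on FPKM after log2 with a pseudocount of 1 or 0.1. Counting limits cover counting error only. Replicates of a group had correlations of log2 CPM (prior count 2) of 0.975 to 0.978 and differed by more than sampling noise.

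The members, partner lists and marker lists were chosen with earlier results of these data known. Members were named if they passed the test, were among the 8 with the smallest unadjusted p under 0.05 in a comparison, were among the 12 highest in control, or were ITGB1, ITGA7 or LAMA2, and the others by range. Partner genes were named if highest (3 for each list) or among the 3 smallest p in a comparison. Some genes that these rules select are not reported here by name; the counts, sums and medians include them.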

Additional observations from a re-analysis of the deposited data

How the results depend on the processing

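Of 467 values recomputed under the alternatives, 438 kept their direction and their side of the threshold, or moved by less than the spread between replicates without a change of sign, 6 passed the threshold in addition, and 12 moved by more than the spread. The other 11 were medians near 0, with no test, that changed sign: the member median in alcohol against control (−0.05 to 0.03 without control replicate 1), and the laminin median in alcohol against control (0.07 to −0.03), in co-treated against alcohol (−0.02 to 0.04) and in all exposed libraries against control (−0.03 to as high as 0.09). No member changed sign in a comparison where its unadjusted p was under 0.05 (edgeR). The other members named above, among them ITGB1, ITGA7 and LAMA2, were not followed singly under the alternatives. The 6 came from leaving out alcohol replicate 1, which leaves a lone alcohol library assumed to vary like the other groups: 2 members then passed in alcohol against control (ITGA10 at 1.81 and ITGA4 at −2.08) and 2 in all exposed libraries against control (ITGA4 at −1.56 and ITGB5 at −0.55). With each library left out in turn the count of members called ran from 0 to 2 in these 2 comparisons and stayed at 0 in the other 2. The cause was not tested. With CPM in place of FPKM, which leaves out gene length, the control share of ITGB1 was 90.2%, of ITGAV 55.1%, of LAMC1 97.7% and of LAMA2 50.7%, and the same chains led.

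Same-numbered libraries shared little of their deviation from the group mean over all genes tested (correlations 0.11, 0.04 and −0.02). Single genes could still share one. MYL2 was at 2139 and 863 FPKM in control replicates 1 and 2 and at 2610 and 821 in alcohol, but at 2478 and 2862 in co-treated libraries. Whether the replicate numbers mark a shared batch was not tested. With the replicate block 0 members were called in each of the 4 comparisons, and calls over all genes went from 10 to 48 in alcohol against control, from 2 to 5 in co-treated against alcohol, from 54 to 136 in co-treated against control and from 83 to 256 with the exposed libraries together. With 2 libraries a group, 11 of the 32 members had intervals that reached beyond 1 log2 unit in alcohol against control, all of them below 3 FPKM in every library.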
